A study of Mus musculus with 10 samples.

Results

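The genes of the hormones made in the pancreatic islets were Ins1, Ins2, Iapp, Gcg, Sst, Ppy, Pyy and Ghrl, taken by symbol from the deposited count tables of whole pancreas. All 8 were among the 24062 genes listed, and all 8 had at least 5 counts in every library and so were among the 13882 genes tested. The pancreas was taken from C57BL/6 mice at post natal day 5 (P5), with 5 libraries of wild type (WT) littermates and 5 of KSR23 mice, whose genotype the labels write as KSR23+. KSR23 mice carry a cassette for both subunits of the cytokine IL-23 behind a floxed stop, inserted at the ROSA26 locus, and Cre recombinase driven by the keratin 14 promoter, so that keratinocytes make IL-23. Sex and litter are not given in the sources used here. Every library was treated as a separate mouse, because the paper describes its pancreas samples as biological replicates, with 5 mice per group.

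Islets are clusters of endocrine cells scattered among the enzyme-secreting acini of the pancreas. Beta cells release insulin, which mice encode in a pair of genes (Ins1 and Ins2), together with amylin, the product of Iapp. Alpha cells make glucagon (Gcg), delta cells make somatostatin (Sst), PP cells make pancreatic polypeptide (Ppy) and the rare epsilon cells make ghrelin (Ghrl). Peptide YY (Pyy) is found in several islet cell types, above all in young animals. Each hormone is cut from a longer precursor inside secretory granules. The RNA came from the whole organ, so for every gene below fewer cells of a type and less RNA per cell cannot be told apart.

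The letters just upstream of these genes are shown because the hormone genes did not move together. Of the 8 members, 7 had an entry among the RefSeq promoters of GRCm38.p6, and the 250 bases before the start of 6 of them are printed here from 5′ to 3′ on the transcript strand. The windows lie at chr19:52264047-52264296 (Ins1, plus strand), chr6:142298175-142298424 (Iapp, plus strand), chr2:62483654-62483903 (Gcg, minus strand), chr16:23890845-23891094 (Sst, minus strand), chr11:102101320-102101569 (Ppy, minus strand) and chr11:102107833-102108082 (Pyy, minus strand). Capitals mark matches to TAAT (the core bound by homeodomain factors such as PDX1), CATCTG (an E-box of the insulin and glucagon promoters), TGACGTCA (the cyclic AMP response element) or TTCNNNGAA (the STAT core) on either strand, and to TATAAA (the TATA box) on the transcript strand. Motifs with shared letters were each counted.
Ins1: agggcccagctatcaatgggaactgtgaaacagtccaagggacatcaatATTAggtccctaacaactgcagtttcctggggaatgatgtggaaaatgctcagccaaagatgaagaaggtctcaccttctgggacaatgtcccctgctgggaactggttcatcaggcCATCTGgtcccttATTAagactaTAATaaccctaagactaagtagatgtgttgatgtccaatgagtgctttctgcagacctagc
Iapp: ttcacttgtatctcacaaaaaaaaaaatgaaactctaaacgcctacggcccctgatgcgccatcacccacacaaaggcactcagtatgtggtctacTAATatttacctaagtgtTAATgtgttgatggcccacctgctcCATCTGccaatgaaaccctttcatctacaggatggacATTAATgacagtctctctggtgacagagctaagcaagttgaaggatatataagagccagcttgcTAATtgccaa
Gcg: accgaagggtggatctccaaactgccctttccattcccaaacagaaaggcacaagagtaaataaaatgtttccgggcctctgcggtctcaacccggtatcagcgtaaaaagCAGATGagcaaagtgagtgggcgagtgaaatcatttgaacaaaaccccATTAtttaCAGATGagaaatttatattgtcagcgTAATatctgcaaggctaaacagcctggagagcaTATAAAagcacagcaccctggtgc
Sst: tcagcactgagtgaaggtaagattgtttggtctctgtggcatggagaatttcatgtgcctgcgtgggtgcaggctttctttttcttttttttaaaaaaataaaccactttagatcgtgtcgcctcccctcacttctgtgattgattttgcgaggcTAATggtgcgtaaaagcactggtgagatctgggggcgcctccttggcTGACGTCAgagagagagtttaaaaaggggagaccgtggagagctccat
Ppy: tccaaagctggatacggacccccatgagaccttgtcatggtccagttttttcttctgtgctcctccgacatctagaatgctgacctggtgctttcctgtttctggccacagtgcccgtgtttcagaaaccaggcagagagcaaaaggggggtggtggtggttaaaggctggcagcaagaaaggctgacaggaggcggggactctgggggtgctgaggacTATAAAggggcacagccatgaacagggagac
Pyy: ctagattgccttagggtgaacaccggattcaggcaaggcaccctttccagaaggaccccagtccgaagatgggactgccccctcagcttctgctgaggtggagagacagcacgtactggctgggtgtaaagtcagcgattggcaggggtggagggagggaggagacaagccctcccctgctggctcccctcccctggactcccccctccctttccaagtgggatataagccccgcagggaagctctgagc

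TAAT occurred in the windows of Ins1, Iapp, Gcg and Sst, with 3, 5, 2 and 1 matches, and in none of those of Ppy, Pyy and Ghrl. As 54.9% of 32817 promoter windows of this length hold TAAT, its presence is common. CATCTG, found in 14.5% of windows, lay in those of Ins1 (first base 84 bases before the start), Iapp (111 before) and Gcg (139 and 83 before). The Sst window held TGACGTCA from 48 bases before the start, a sequence found in 1.55% of windows. TATAAA (7.60% of windows) lay 24 bases before the start of Gcg and 31 before that of Ppy. TTCNNNGAA, which 7.01% of windows hold, was in none of the 7. The motifs were chosen with these sequences and the direction of each gene known, so the split is a description of letters, not of binding.

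The members lie on chromosomes 19 (Ins1), 7 (Ins2), 6 (Iapp and Ghrl), 2 (Gcg), 16 (Sst) and 11 (Ppy and Pyy) in GENCODE M21 on GRCm38, the assembly of mm10. Ppy (chr11:102099930-102101319) and Pyy (chr11:102106676-102107832) stand side by side on the minus strand with 5356 bases between them. Of all 75-base windows of the longest coding transcript, the read length here, 100% occurred in no other annotated gene for 7 members. For Ghrl (chr6:113716119-113719880) the share was 94.2%, and the windows it shared lay in Gm44033, an overlapping gene model on the opposite strand. Iapp (chr6:142298423-142303961) lies inside the span of Slco1a5 on the opposite strand. The library kit does not keep strand, so reads of antisense partners cannot be told apart at these 2 genes.

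Levels were compared between genes as CPM (counts scaled to a common library size) per kb of the longest coding transcript, since a longer transcript gives more reads. In WT mice the means ran from Ins2 at 4586, Gcg at 3125, Ins1 at 1067 and Iapp at 634 to Pyy at 269.9, Sst at 136, Ppy at 93.1 and Ghrl at 11.1 CPM per kb. In this order the ranges of Sst and Ppy overlapped across the 5 WT mice, and those of all other neighbours did not. In KSR23 mice the means were 2721 for Ins2, 1442 for Gcg, 817 for Ins1, 395 for Iapp, 387 for Pyy, 181 for Ppy, 71.7 for Sst and 14.6 CPM per kb for Ghrl. Ppy stood above Sst in every KSR23 mouse, while Iapp and Pyy overlapped. The plot of CPM by mouse shows the values behind these levels.

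**Figure D1:**
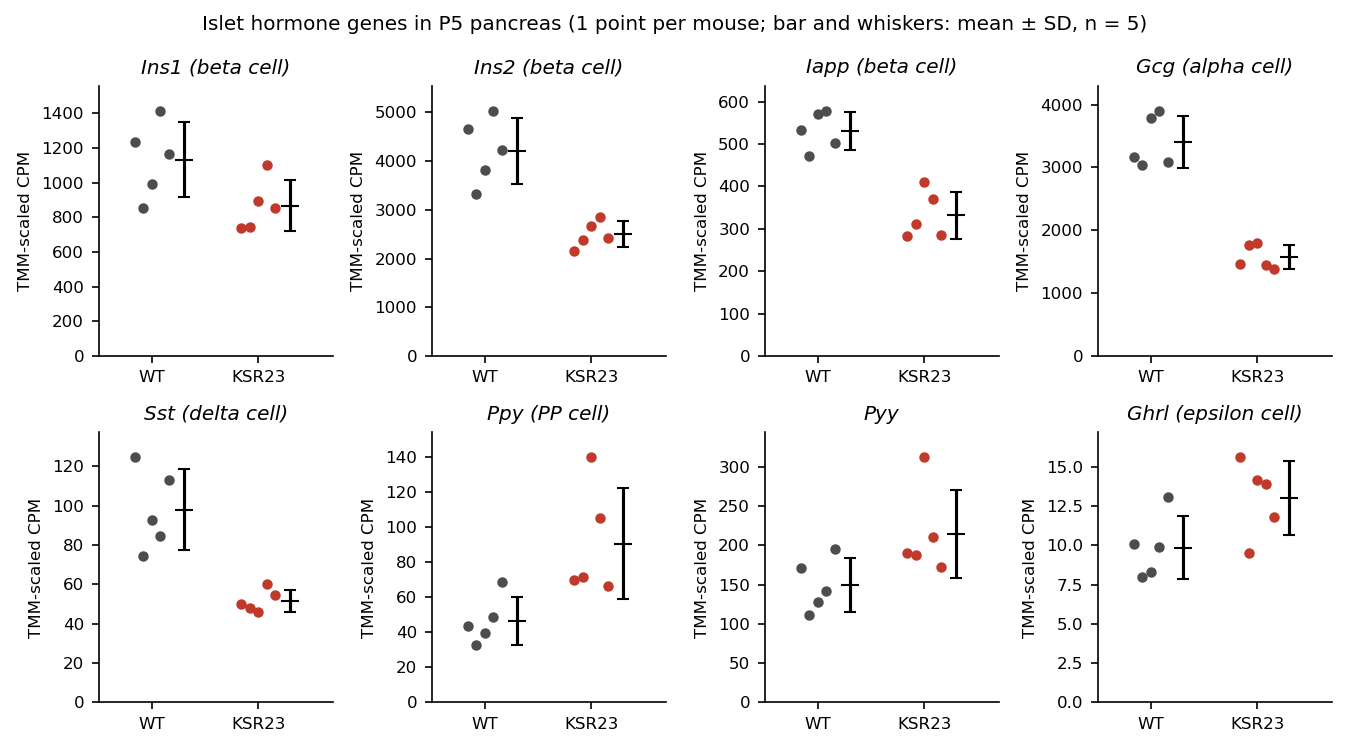
TMM-scaled CPM of each hormone gene (vertical axis, linear from 0, with its own scale in each panel) in 5 WT and 5 KSR23 mice, 1 point per mouse, with bar and whiskers for the group mean and SD. Ins2, Iapp, Gcg and Sst show no overlap between groups, with KSR23 mice lower, while Ins1, Ppy, Pyy and Ghrl overlap.

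The comparison of KSR23 with WT mice asks whether islet gene expression differs in pups that make IL-23 in their skin. The insulin, amylin, glucagon and somatostatin genes were lower in KSR23 mice, by log2 fold changes (log2 FC) from -0.39 to -1.12, and Ppy, Pyy and Ghrl were higher, by 0.40 to 0.95. By the quasi-likelihood test of edgeR, Benjamini-Hochberg adjusted over all 13882 genes, 8 of the 8 members had an adjusted p under 0.05, against 31.0% of all genes tested. Of these, 5 were lower, where 14.8% of all genes were called lower, and 3 were higher, where 16.2% of all genes were called higher. The groups did not overlap for 4 members, all of them lower, against 19.4% of all genes. The median log2 FC of the members was -0.53, and that of all genes tested -0.01. CPM values use library sizes scaled by the TMM method. The share of alignments that were not unique was 49.6% to 53.7% in WT and 38.5% to 42.5% in KSR23 libraries, and its part in the results was not tested.

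Of the beta cell products, Ins2 had 4653, 3321, 3815, 5039.9 and 4219.9 CPM in WT replicates 1 to 5 and 2156, 2383, 2674, 2849.9 and 2428 CPM in KSR23 replicates 1 to 5. Every KSR23 mouse lay below every WT mouse. WT mice averaged 4209.8 ± 677 and KSR23 mice 2498 ± 269 CPM (SD over 5 mice). The fitted log2 FC was -0.75 ± 0.116 (SE; adjusted p = 8.22e-05, edgeR's quasi-likelihood test). Ins1, the other insulin gene, had 1236, 855, 992, 1417 and 1164 CPM in the WT mice and 741, 744, 895, 1102 and 855 CPM in the KSR23 mice. Its groups overlapped, with KSR23 replicate 4 above 2 of the WT mice. The average went from 1133 ± 218 to 867 ± 148 CPM (SD over 5 mice). Its fitted log2 FC was -0.39 ± 0.128 (SE; adjusted p = 0.0291, edgeR's quasi-likelihood test). This call was lost with libraries scaled by their total alone (log2 FC -0.29, adjusted p = 0.0838) and without any of WT replicate 1 (adjusted p = 0.0682), WT replicate 4 (0.0982), KSR23 replicate 1 (0.0674) or KSR23 replicate 2 (0.0702) in edgeR.

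Iapp encodes amylin, which is stored and released with insulin. It had 533, 473, 570.5, 579 and 503 CPM in the WT mice and 284, 311, 409, 369.6 and 284 CPM in the KSR23 mice. The highest KSR23 value, in replicate 3, stayed under the lowest WT value, in replicate 2. WT mice averaged 532 ± 44.8 and KSR23 mice 331 ± 55.7 CPM (SD over 5 mice). The fitted log2 FC was -0.68 ± 0.0976 (SE; adjusted p = 3.56e-05, edgeR's quasi-likelihood test).

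Glucagon, the alpha cell hormone that raises blood glucose, showed the largest fall among the members. Gcg had 3168, 3043, 3791, 3906 and 3089 CPM in the WT mice and 1456, 1762, 1792, 1451 and 1384 CPM in the KSR23 mice. The groups stood well apart, since the lowest WT mouse exceeded the highest KSR23 mouse by more than the spread within the KSR23 group. WT mice averaged 3399.6 ± 414 and KSR23 mice 1569 ± 193 CPM (SD over 5 mice), or 2.17 times as high in WT. The fitted log2 FC was -1.12 ± 0.107 (SE; adjusted p = 3.11e-07, edgeR's quasi-likelihood test).

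Somatostatin, made by delta cells, restrains both insulin and glucagon release. Sst had 125, 74.2, 92.9, 84.8 and 113 CPM in the WT mice and 49.9, 47.8, 46.0, 60.1 and 54.5 CPM in the KSR23 mice. No KSR23 mouse reached the level of any WT mouse, and the WT mice were the more spread group. WT mice averaged 98.0 ± 20.7 and KSR23 mice 51.7 ± 5.67 CPM (SD over 5 mice). Its fitted log2 FC was -0.92 ± 0.117 (SE; adjusted p = 9.08e-06, edgeR's quasi-likelihood test).

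The related peptides pancreatic polypeptide and peptide YY went the other way. Ppy had 43.5, 32.7, 39.3, 48.5 and 68.7 CPM in the WT mice and 69.7, 71.4, 139.7, 105 and 66.1 CPM in the KSR23 mice. Only WT replicate 5 reached into the KSR23 range, and KSR23 replicate 3, from the smallest library, was the highest of all 10. WT mice averaged 46.5 ± 13.7 and KSR23 mice 90.4 ± 31.7 CPM (SD over 5 mice). The fitted log2 FC was 0.95 ± 0.197 (SE; adjusted p = 0.00133, edgeR's quasi-likelihood test).

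Pyy had 172, 111, 128, 143 and 196 CPM in the WT mice and 191, 187, 313, 211 and 172 CPM in the KSR23 mice. The groups overlapped, with WT replicate 5 above 3 of the KSR23 mice, and KSR23 replicate 3 was again the highest. WT mice averaged 149.8 ± 34.1 and KSR23 mice 215 ± 56.3 CPM (SD over 5 mice). The fitted log2 FC was 0.52 ± 0.153 (SE; adjusted p = 0.0153, edgeR's quasi-likelihood test). Without KSR23 replicate 3 the log2 FC of Pyy was 0.35 (adjusted p = 0.0346) in the same edgeR test, and DESeq2 did not call the gene (log2 FC 0.52, adjusted p = 0.0613).

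Ghrelin is the scarcest of the 8 products, with epsilon cells being few outside fetal and newborn life. Ghrl had 10.1, 8.0, 8.29, 9.87 and 13.1 CPM in the WT mice and 15.6, 9.54, 14.2, 13.9 and 11.8 CPM in the KSR23 mice. The groups overlapped, and KSR23 replicate 2 lay below 3 of the WT mice. WT mice averaged 9.86 ± 2.02 and KSR23 mice 13.0 ± 2.37 CPM (SD over 5 mice). This gave a log2 FC of 0.40 ± 0.145 (SE; adjusted p = 0.0450, edgeR's quasi-likelihood test). That call is close to the threshold and was lost under 10 of 18 alternatives, 7 of which left out 1 mouse.

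**Figure D2:**
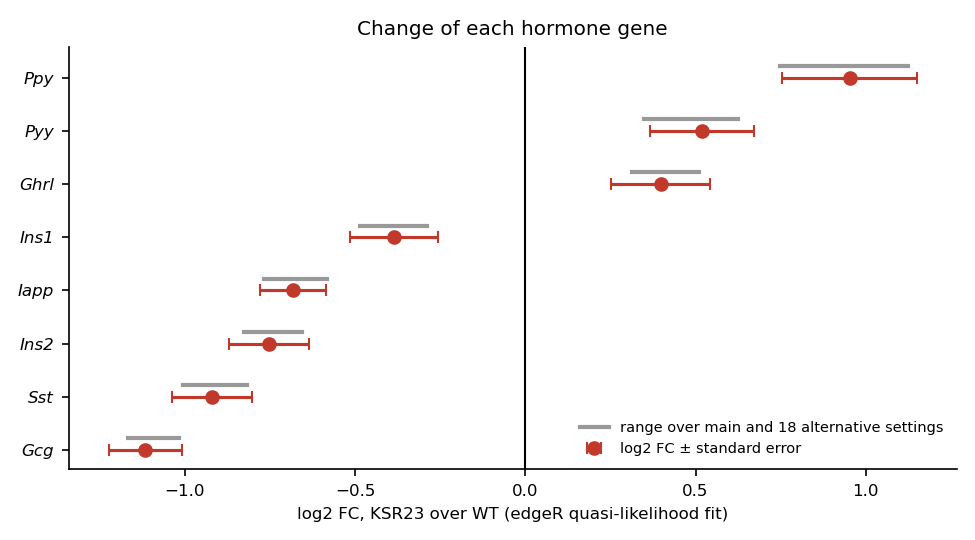
Log2 FC of each hormone gene in KSR23 against WT mice (horizontal axis) as a red point with its standard error, and in grey the range of that value over the main and 18 alternative settings. Gcg is lowest at -1.12 and Ppy highest at 0.95, and no range crosses 0.

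The direction of every member was the same under all 18 alternatives, which included other tests, scalings and filters. The log2 FC ranged from -1.17 to -1.02 for Gcg, from -0.83 to -0.66 for Ins2, from -0.77 to -0.58 for Iapp and from -1.01 to -0.82 for Sst. Ppy ranged from 0.75 to 1.12. Scaling by library total alone moved the median of all genes to 0.09.

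As a share of all gene counts in a library, the 8 hormone genes together made up 0.925% ± 0.0925 (SD, n = 5) in WT and 0.582% ± 0.0687 in KSR23 mice. The 2 groups did not overlap. The difference was -0.342 percentage points (two-sided exact permutation test over mice, p = 0.00794, the smallest that 5 mice against 5 allow; 0.0127 after Benjamini-Hochberg adjustment over 8 shares). Both insulin genes together went from 0.516% to 0.347% and Gcg from 0.328% to 0.162%, each with the same exact permutation p of 0.00794. Because shares in a library sum to a whole, they also move with the abundant enzyme and Reg genes. As a share of totals without enzyme and Reg genes, the difference was -0.989 percentage points (exact permutation test, adjusted p = 0.0127). The 25 tested digestive enzyme genes had a median log2 FC of -0.59 and the 6 tested Reg genes one of 6.28, with summed Reg levels of 34237 to 42769 CPM in WT and 97932 to 118838 CPM in KSR23 mice.

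Within the hormone counts alone the makeup also differed. Ins2 gave 43.8% of hormone counts in WT and 44.3% in KSR23 mice, and Iapp gave 5.58% and 5.85%. Ins1 gave 11.8% and 15.4%, and Gcg 35.6% and 27.9%. The PP family genes took a larger part in KSR23 mice, with Ppy at 0.486% and 1.58% and Pyy at 1.57% and 3.79%. Sst gave 1.03% and 0.923%, and Ghrl 0.104% and 0.233%.

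**Figure D3:**
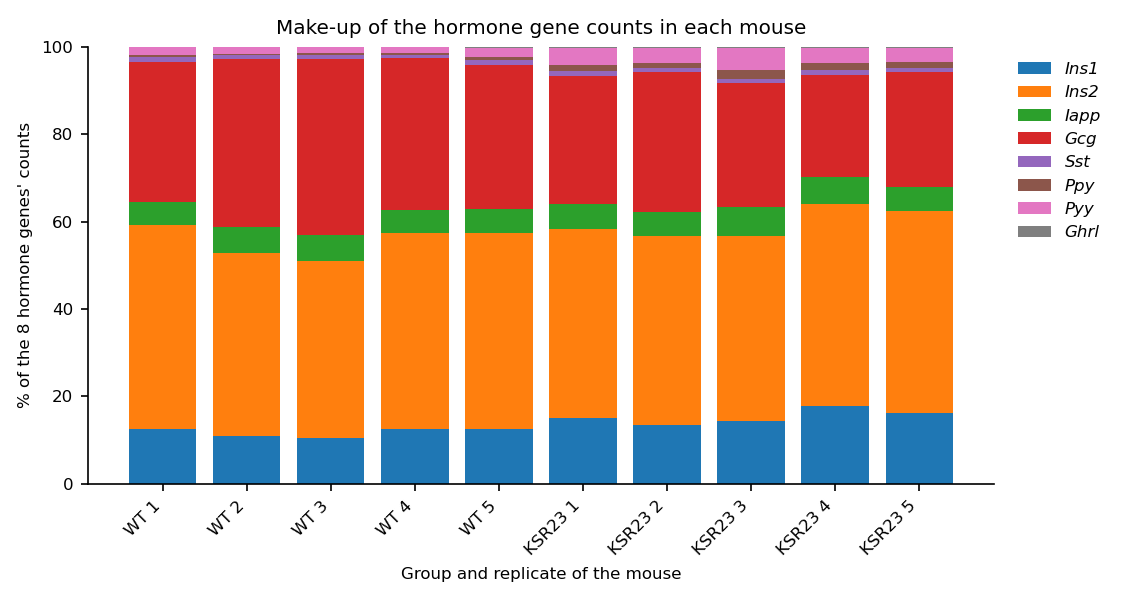
Share of each hormone gene in the summed hormone counts (vertical axis, percent) for each of 10 mice, as stacked bars that reach 100%. Gcg takes a mean of 35.6% in WT and 27.9% in KSR23 mice, while Pyy goes from 1.57% to 3.79%.

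Ratios within a library do not depend on how libraries are scaled. Taking insulin as the sum of Ins1 and Ins2, 7 log2 ratios were compared with two-sided exact permutation tests and adjusted over the 7. Relative to insulin, Ppy was higher by 1.60, Pyy by 1.17 and Ghrl by 1.06 on the log2 scale in KSR23 mice, each with an adjusted p of 0.0139 in the exact permutation test. In each of these 3 ratios the smallest p that 5 against 5 allow was reached, so no WT mouse overlapped a KSR23 mouse. Gcg to insulin was lower by a log2 difference of -0.46 (exact permutation test, adjusted p = 0.0222), though not without WT replicate 3 (-0.38, adjusted p = 0.0556). Sst to insulin (log2 difference -0.25, adjusted p = 0.139) and Iapp to insulin (-0.03, adjusted p = 0.810) did not pass the exact permutation test. The sign of the Iapp ratio turned when Ins2 alone was the denominator.

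The pair of insulin genes fell unequally. Ins2 counts were 3.76, 3.89, 3.84, 3.56 and 3.62 times those of Ins1 in the WT mice, and 2.91, 3.21, 2.99, 2.59 and 2.84 times in the KSR23 mice. Every KSR23 mouse lay below every WT mouse, and the spread within each group was small. The log2 ratio was 1.90 ± 0.0547 (SD, n = 5) in WT and 1.54 ± 0.113 in KSR23 mice, a difference of -0.36 (two-sided exact permutation test, adjusted p = 0.0139).

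The neighbouring Ppy and Pyy genes also shifted against each other, in a ratio added after the values were seen. Ppy counts were 0.253, 0.295, 0.307, 0.340 and 0.350 times those of Pyy in the WT mice, and 0.365, 0.381, 0.447, 0.497 and 0.383 times in the KSR23 mice. The groups did not overlap, although WT replicate 5 and KSR23 replicate 1 lay close together. The log2 ratio differed by 0.42 (two-sided exact permutation test, p = 0.00794), and by 0.35 to 0.47 when each mouse was left out.

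**Figure D4:**
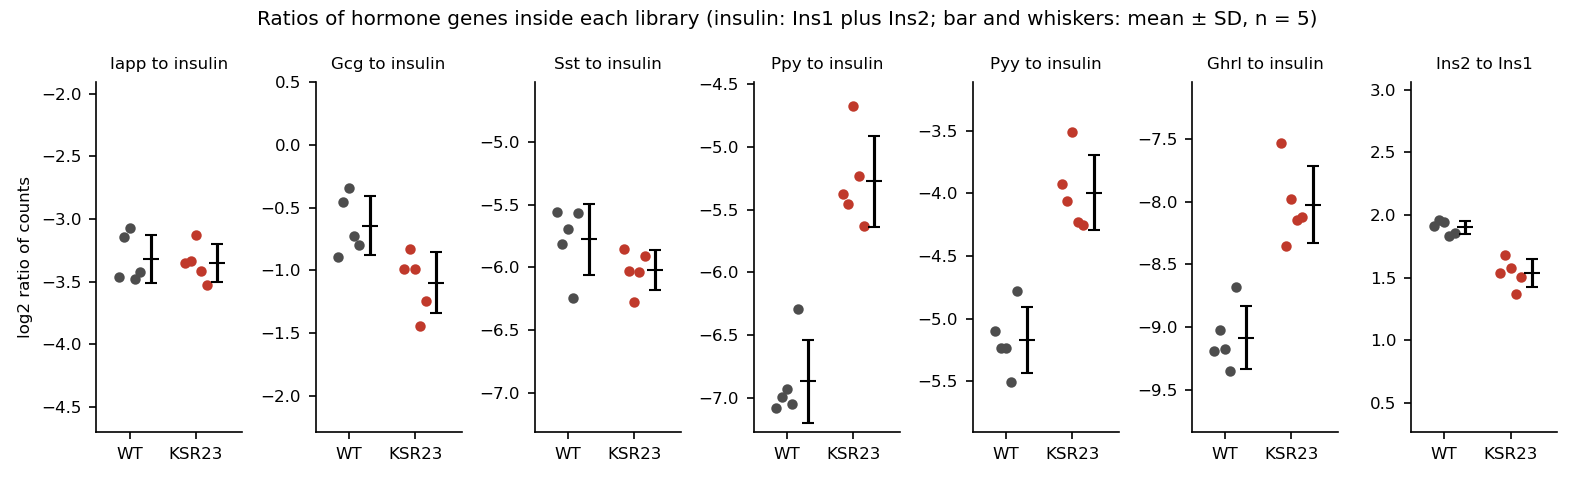
Log2 ratios of hormone genes within each library, 1 point per mouse, for WT and KSR23 mice, with bar and whiskers for the mean and SD. Each panel has its own vertical axis of the same span, so distances can be compared between panels; the Ins2 to Ins1 ratio falls from 1.90 to 1.54, and the Ppy to insulin ratio rises by 1.60.

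How the members varied among mice of one group is described here by Pearson's r of log2 CPM after each group's mean was taken away, over 10 mice that share a library per value. Ins1 and Ins2 had an r of 0.96, and Ppy and Pyy one of 0.92, while Gcg and Sst had -0.41, Gcg and Ghrl -0.30, Ins1 and Gcg 0.11 and Iapp and Sst 0.02. The members thus did not vary as 1 group. Among 7424 genes with a mean of at least 10 CPM, the genes most like Ins1 were Ins2 (0.96), Rps15a (0.95) and Rps25 (0.94), and those most like Ins2 were Ins1, Son (0.96) and Ccdc23 (0.94). Iapp was most like Klk1 (0.92), Nap1l4 (0.91) and Utp3 (0.90), and Gcg most like Phtf1 (0.93), Mrpl40 (0.92) and Mdp1 (0.91). Sst was nearest to Golga2 (0.95), Ccdc85b (0.92) and Rpl13 (0.92). Ppy was nearest to Tmem203 (0.94), Chgb (0.94) and Rab11b (0.92), and Pyy to Tpm2 (0.94), H1fx (0.93) and 1110004E09Rik (0.93). Ghrl was most like Hp1bp3 (0.96), Abcc8 (0.95), the sulfonylurea receptor of endocrine cells, and Smarcc2 (0.94). These values rank genes over 10 mice and carry no test.

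A list of genes that process prohormones or break down the released peptides was tested next. Of its 8 tested genes, edgeR's quasi-likelihood test called 4 lower and 1 higher and left 3 without a call, with a median log2 FC of -0.36. The 4 lower genes were Pcsk1, Pam, Cpe and Dpp4, a peptidase that degrades released hormones and takes no part in their processing, against 14.8% of all genes called lower. Pcsk1, the convertase that opens proinsulin, was lower by a log2 FC of -0.997, from 31.0 ± 2.06 to 15.5 ± 1.81 CPM (SD over 5 mice each). Pam, which amidates peptides such as amylin and pancreatic polypeptide, had a log2 FC of -0.80, and Cpe, the carboxypeptidase that trims cut prohormones, one of -0.73. For all 3 the groups did not overlap. Pcsk2, the convertase that releases glucagon from its precursor, had 83.2 ± 3.88 CPM in WT and 75.7 ± 9.99 CPM in KSR23 mice and was not among the called genes (edgeR log2 FC -0.14, adjusted p = 0.216). Pcsk1n, an inhibitor of Pcsk1, was the single gene that rose, with a log2 FC of 0.61. Mboat4, the enzyme that acylates ghrelin, had at most 11 counts in any library and was not tested.

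Of 12 genes for the endocrine granule, 8 were lower and 4 were not called, with a median log2 FC of -0.46. Over all genes tested, 14.8% were called lower. Vgf, a granule protein cut into several peptides, had the largest change of these at -2.27, from 2.16 to 3.89 CPM over the WT mice and 0.448 to 0.800 CPM over the KSR23 mice. Ptprn and Ptprn2, membrane proteins of the granule, had log2 FCs of -0.72 and -0.64. Chga, the granin used as a general endocrine marker, was lower by a log2 FC of -0.32 with overlapping groups. Of 11 genes for glucose sensing in beta cells, 4 were lower and 7 were not called, with a median of -0.33. That is 36.4% called, near the 31.0% of all genes. The 3 with the largest changes were Glp1r, the receptor of glucagon-like peptide 1 (log2 FC -0.90), G6pc2, the islet glucose-6-phosphatase (-0.82), and Ucn3, a peptide of mature beta cells (-0.65).

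Factors that specify islet cells showed no common direction. Of 19 tested transcription factor genes, 3 were higher, 3 lower and 13 not called, with a median log2 FC of -0.01. The share called was 31.6%, near the 31.0% of all genes. Mafa, an activator of insulin genes in mature beta cells, was lower by a log2 FC of -0.84, and its groups did not overlap. Mnx1 was called higher (log2 FC 1.16) from only 5 to 18 counts in WT and 14 to 62 counts in KSR23 libraries. Of 10 tested hormone receptor genes, 2 were higher, 3 lower and 5 not called, with a median of 0.03. Called were 50% of them, against 31.0% of all genes. These 5 calls became 3 without WT replicate 1, WT replicate 4 or KSR23 replicate 1. Sstr3, a somatostatin receptor, had a log2 FC of 1.16 at 7 to 88 counts, and Ramp3, a partner in amylin receptors, one of 1.08, while Glp1r was the largest of the lower ones.

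**Figure D5:**
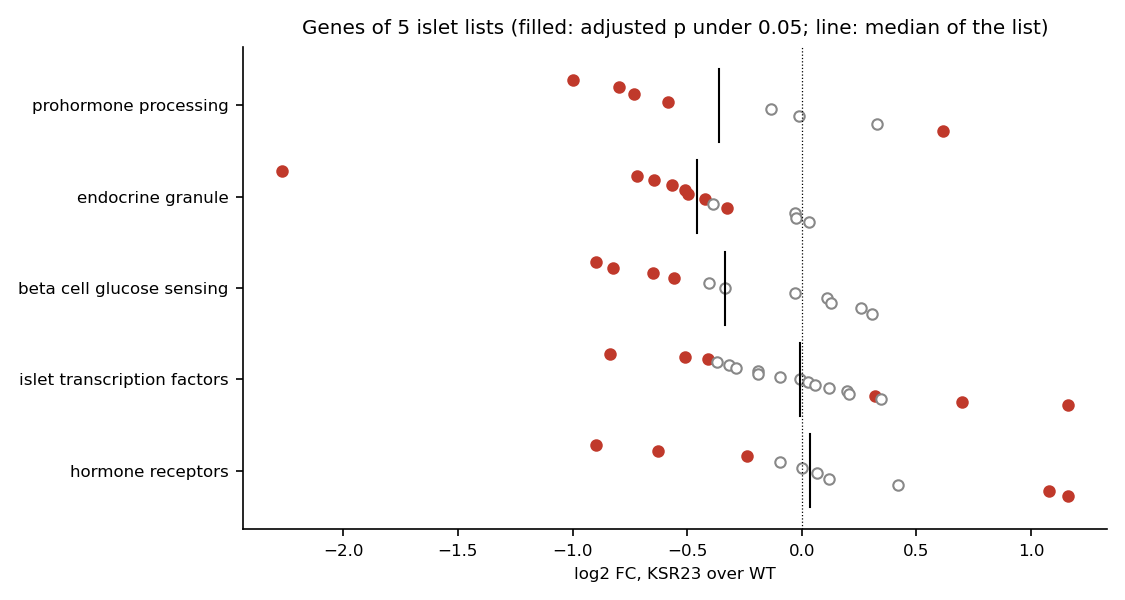
Log2 FC of KSR23 against WT mice (horizontal axis) for each tested gene of 5 islet lists, 1 point per gene, filled where the adjusted p was under 0.05, with a line at each list's median. Granule genes are called in 1 direction, with a median of -0.46, while the islet transcription factors spread to both sides of a median of -0.01.

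The cells behind these values were checked with marker genes. Of 10 beta cell markers, 8 were lower and 2 not called, but Ins1, Ins2 and Iapp are among them and make up most of their summed level. Without these 3 members, 5 of 7 markers were lower and 2 not called, where 14.8% of all genes were called lower, with a median log2 FC of -0.56. The summed level of the 7 was 95.4 to 102 CPM in WT and 52.2 to 78.4 CPM in KSR23 mice. Of 5 tested alpha cell markers, 2 were lower, namely Gcg and Ttr, the transthyretin gene (log2 FC -2.09), while 1 was higher and 2 were not called. Of 3 tested delta cell markers, Sst was lower while Rbp4 (log2 FC 0.99) and Hhex (0.32), the factor of delta cells, were higher. Of 10 general endocrine markers, 4 were lower, 1 was higher and 5 were not called, with a median of 0.01. Called were 50% of them, against 31.0% of all genes. These 5 calls became 3 when libraries were scaled by total counts. Hormone genes of a cell type thus did not always share the direction of its other markers.

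Ppy, Pyy and Ghrl are also made by endocrine cells of the gut and stomach, and tissue of either could lie beside a dissected pancreas. Of 8 gut epithelium markers, 1 passed the filter, Vil1, which the pancreas also expresses (log2 FC 0.41). Their summed level was 5.56 to 7.97 CPM in WT and 7.32 to 10.7 CPM in KSR23 mice, and the intestinal factor Cdx2 had 0 counts in every WT library and at most 3 in any KSR23 library. Fabp2, a fatty acid binding protein of enterocytes, had 1 to 8 counts in WT and 4 to 55 counts in KSR23 libraries and was not tested. The call of Vil1 was lost without WT replicate 1, 2 or 4 or KSR23 replicate 3 or 4, and the part of gut tissue in the levels of Ppy, Pyy and Ghrl was not tested. Of 6 stomach markers, 3 (Gkn2, Muc5ac and Tff1) were at 0 in all 10 libraries, and the summed level was 2.18 to 3.43 CPM in WT and 2.18 to 3.34 CPM in KSR23 mice. Of 6 neural and Schwann cell markers, 1 was higher, Vip (log2 FC 0.74), with summed levels of 13.7 to 19.8 CPM in WT and 18.4 to 23.6 CPM in KSR23 mice. That share of 16.7% is near the 16.2% of all genes called higher.

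The exocrine and immune cells around the islets moved too. Over all genes tested, 14.8% were called lower and 16.2% higher. Of 8 acinar markers, 7 were lower and 1 was not called, and of 6 duct markers, 5 were higher and 1 was not called, with summed duct levels of 931 to 1044 CPM in WT and 1541 to 1702 CPM in KSR23 mice. All 6 tested myeloid markers were higher, from 208 to 280 CPM summed in WT to 254 to 586 CPM in KSR23 mice. Of 4 tested lymphoid markers, 1 was lower, Cd3e (log2 FC -1.50). The T cell marker Cd3d went the other way, with 2 to 5 counts in WT and 11 to 30 counts in KSR23 libraries. Cd8a had 0 counts in WT and 1 to 4 counts in KSR23 libraries. Both were under the filter and not tested, as were Ms4a1 and Nkg7, whose groups overlapped. The lymphoid markers thus showed no common direction. The part of these shifts in the hormone gene values was not tested. Il23a, which encodes the IL-23 p19 subunit on the cassette, had 1 to 9 counts in WT and 21 to 48 counts in KSR23 libraries, and Il12b, for p40, had 0 to 7 and 3 to 13 counts.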

How the data were processed

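Whole-pancreas libraries of 5 WT and 5 KSR23 mice were grouped by the labels. Libraries were made with the oligo-dT primed SMART-Seq v4 kit and PCR, with no molecular identifiers named, and read as single ends of 75 bases. Alignment was to mm10 with TopHat 2.1.0. The deposited values are raw counts, which the authors obtained with HTSeq (0.6.1p1 in the submitters' notes) from reads with 1 alignment by strict intersection. The annotation and strand setting are not given in the sources used here. The 5 tallies of unassigned alignments in each file were kept out.

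A minimum of 5 counts in each library kept 13882 of 24062 genes, which were compared with edgeR 4.0.16 (TMM scaling, quasi-likelihood F test, Benjamini-Hochberg adjustment over all genes) in R 4.3.3, after the method was tested on simulated data. Log2 CPM values used a prior count of 2. Shares and ratios (0.5 counts added) were compared with two-sided exact permutation tests over all 252 divisions of the 10 mice. Libraries held 16715976 to 57784136 gene counts, so that 3 counts, taken as the floor, equal 0.0536 to 0.168 CPM. This floor covers counting error only. The members, gene lists and motifs were chosen with earlier results of these data known. Named were all members, the 3 called genes with the largest change of each pathway list (without a call, the 3 highest in CPM), defining markers, and the 3 genes most like each member. Other list genes given with values (Pcsk2, Pcsk1n, Mboat4, Chga, Fabp2, Cd3d and Cd8a) were chosen after their values were seen. So was the Ppy to Pyy ratio. Dpp4, Ms4a1 and Nkg7 were also named after their values were seen, and their values are not given here. Alternatives tried were DESeq2 1.42.0, edgeR's likelihood ratio test, scaling by RLE, by total counts or by totals without enzyme and Reg genes, other low-count filters, leaving out each mouse, and a block for the replicate number. Gene positions are those of GENCODE M21.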

Additional observations from a re-analysis of the deposited data

Results flagged for a closer look

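Of 46 groups of 5 values examined for a sample far from the others, 2 held one, where chance alone gives about 2.3. Pyy stood at 312.6 CPM in KSR23 replicate 3, the smallest library, and between 172 and 211 CPM in the other 4 KSR23 mice. The ratio of Ppy to insulin counts was 0.0128 in WT replicate 5 and between 0.00738 and 0.00817 in the other 4 WT mice, still below the 0.0201 of the lowest KSR23 mouse. What sets these 2 mice apart was not tested.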

How the results depend on the processing

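Over 18 alternatives, 6 to 8 members were called, and the count of all genes called was 3497 to 4652 against 4299. With libraries scaled by their total alone, 72.6% of calls were higher against 52.3%, and 43.0% without enzyme and Reg genes. Calls were lost for Pyy with DESeq2 (log2 FC 0.52, adjusted p = 0.0613), for Ins1 with library size alone (-0.29, 0.0838 in edgeR), and for Ghrl in edgeR with library size without enzyme and Reg genes (0.36, 0.0735), with no low-count filter (0.39, 0.0510) and with at least 10 counts in 5 libraries (0.40, 0.0515); the cause was not tested. Leaving out each mouse gave a log2 FC of -0.49 to -0.30 for Ins1 and 0.31 to 0.51 for Ghrl (adjusted p up to 0.128 in edgeR). Without WT replicate 4, Sst to insulin passed the exact permutation test (log2 difference -0.36, adjusted p = 0.0222). The Iapp to insulin ratio, which passed no test, was 0.0510 with Ins2 alone as denominator, turned positive without WT replicate 2, WT replicate 3 or KSR23 replicate 5, and ranged from -0.0913 to 0.0257 over mice left out.

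Same-numbered mice correlated from -0.111 to 0.0661, and 1 of 5 correlated best with its own number. No pairing by number was seen, though such values cannot exclude one, as litter is not given. With the replicate number as a block, 8 members and 3749 genes were called, and the calls among hormone receptor genes went from 5 to 3. The hormone share kept its difference of -0.342 percentage points (paired exact permutation test, adjusted p = 0.1, as the smallest paired p is 0.0625), and for the same reason 0 of 7 ratios passed, against 5. The share of Ppy lost its call in 5 of 13 alternatives and those of Pyy and Ghrl in 10 of 13.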

Other observations

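Other gut and stomach hormone genes were near the floor in these pancreas libraries. Gast, the gastrin gene, had 3 to 9 counts in WT and 7 to 16 counts in KSR23 libraries, Cck had 2 to 10 and 1 to 14 counts, Sct, the secretin gene, had 2 to 18 and 4 to 11 counts, and Gip had at most 2 counts in any library. None of these 4 was tested.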
